A study of Mus musculus with 4 samples.

Results

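The signal transducers and activators of transcription (STATs) are latent transcription factors, and the accessible chromatin around 6 of their genes, Stat2, Stat3, Stat4, Stat5a, Stat5b and Stat6, was examined in mouse microglia with and without the transcription factor IRF8. ATAC-seq, in which the Tn5 transposase inserts adapters into open DNA, had been run on 4 libraries of microglia sorted by flow cytometry from untreated C57BL/6 mice aged 3 months. The genotype was WT for 2 libraries and IRF8KO for the other 2, and both genotypes were otherwise handled alike per the labels. The labels do not say how the IRF8KO allele was made or whether the replicates came from separate mice, so the p-values measure only the spread between these libraries, which may be technical. The members were all deposited peaks that overlapped a gene body or 10 kb on either side of it (GRCm38, GENCODE M21). Replicates 1 and 2 of WT had 53 and 63 of them and those of IRF8KO 58 and 52, or 226 of 676057 deposited peaks in all.

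Cytokines and interferons bind receptors that carry Janus kinases, the kinases phosphorylate STATs on a tyrosine, and the paired STATs enter the nucleus and bind DNA. Most STAT pairs bind the gamma-activated site (GAS), whereas STAT2 acts mainly in a complex with IRF9 at the interferon-stimulated response element (ISRE). In macrophages, STAT3 transmits IL-6 and IL-10 signals, STAT6 those of IL-4 and IL-13, and STAT5A and STAT5B those of GM-CSF. STAT4 is known chiefly from T and natural killer cells, where it transmits IL-12 signals. IRF8 binds DNA with the myeloid factor PU.1 at composite ETS-IRF elements, and it also binds ISREs with other IRFs.

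Peaks with a −log10 q of 2 or more were called strict, and strict peaks of the 4 libraries that overlapped were merged into regions. The 6 windows held 59 of 155546 regions. A further 33 stretches held only weaker deposited peaks, each in 1 library, with a summit pileup of 6 to 21. Pileup is the depth of cut sites at the summit of a peak, each cut site being extended to 73 bp by the authors. It is given below per 1000000 tags of the library, as the scaled pileup, which does not depend on gene length.

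Sequences of 8 stretches, chosen after their values were seen, are shown with their motif matches. They are the Stat2 promoter, 4 regions called different between the genotypes, and 3 regions that held a STAT or IRF motif and were not called different. Each is read from the plus strand of GRCm38 and, apart from the Stat2 promoter, spans the summit and 50 bases on either side. Capitals mark matches on either strand to GAS (TTCNNNGAA), ISRE (GAAA, any 2 bases, GAAA), ETS-IRF (GGAA, any 2 bases, GAAA), PU.1 (GAGGAAGT), AP-1 (TGANTCA) or CEBP (TTGCNNAA).
Stat2 promoter, 250 bases before the RefSeq start, chr10:128270248-128270497: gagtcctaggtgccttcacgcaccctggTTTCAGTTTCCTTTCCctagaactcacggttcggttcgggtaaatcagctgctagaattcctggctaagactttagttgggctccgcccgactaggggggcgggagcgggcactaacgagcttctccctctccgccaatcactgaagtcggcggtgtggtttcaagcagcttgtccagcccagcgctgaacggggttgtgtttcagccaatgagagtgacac
Stat3 intron 1, lower in IRF8KO, chr11:100927536-100927636: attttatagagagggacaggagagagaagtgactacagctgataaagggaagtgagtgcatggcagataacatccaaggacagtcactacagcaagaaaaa
Stat5b intron 2, lower in IRF8KO, chr11:100805578-100805678: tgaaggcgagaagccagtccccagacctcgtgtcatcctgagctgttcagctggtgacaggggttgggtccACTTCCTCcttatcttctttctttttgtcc
Il23a promoter in the Stat2 window, higher in IRF8KO, chr10:128298443-128298543: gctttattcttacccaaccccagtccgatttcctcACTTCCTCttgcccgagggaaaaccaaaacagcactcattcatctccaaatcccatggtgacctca
Upstream of Stat6, higher in IRF8KO, chr10:127636778-127636878: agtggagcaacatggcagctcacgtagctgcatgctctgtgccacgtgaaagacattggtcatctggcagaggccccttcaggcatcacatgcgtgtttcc
Stat3 intron 1, not called, chr11:100931757-100931857: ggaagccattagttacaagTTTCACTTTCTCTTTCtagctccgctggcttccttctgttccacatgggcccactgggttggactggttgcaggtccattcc
Stat6 intron 1, not called, chr10:127643933-127644033: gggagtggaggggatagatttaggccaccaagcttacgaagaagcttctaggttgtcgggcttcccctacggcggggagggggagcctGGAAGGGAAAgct
Downstream of Stat4, not called, chr1:52113810-52113910: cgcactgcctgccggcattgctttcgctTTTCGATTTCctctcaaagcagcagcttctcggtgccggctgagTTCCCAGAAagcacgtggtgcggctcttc

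The Stat2 promoter held an ISRE match, GAAACTGAAA on the minus strand at 128270276 to 128270285, that overlapped an ETS-IRF match, GGAAAGGAAA on the same strand at 128270282 to 128270291. Both lay inside a region open in all 4 libraries. In RefSeq promoters taken as the 250 bases before a start (GRCm38.p6), 2.97% of 32817 held the ISRE pattern and 2.30% the ETS-IRF pattern. All 6 genes had an entry. The one further match to any of the 6 patterns was an ISRE, GAAAGTGAAA, 97 bases before the internal start of Stat4, and it lay in no strict region. A match is a stretch of letters and not a measured binding site.

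Depth followed genotype, with 46948938 and 48896408 tags for WT against 78793572 and 66224648 for IRF8KO, and so did tag size, at 50 bp in WT and 49 bp in IRF8KO. Regions with a deposited peak in all 4 libraries numbered 58550, and their median scaled pileup was 0.767 and 0.614 for the WT libraries against 0.444 and 0.695 for IRF8KO. The IRF8KO medians were thus lower by 0.30 on the log2 scale on average, and differences below are given relative to the median region of each library. A strict peak covered the start site of 8 of 9 microglia markers in every library, the exception being Sall1. None of 11 T or natural killer cell markers and none of 4 B cell markers had one in any library. Of 4 astrocyte markers 1 and 1 had one in WT and 2 and 3 in IRF8KO, and of 6 neutrophil markers none had one in WT and 1 in each IRF8KO library. Of 4 endothelial markers 3 and 2 had one in WT and 2 and 1 in IRF8KO, of 4 oligodendrocyte markers 1 in each library, and of 3 neuronal markers 1, in WT replicate 2. The part of other cells in the results was not tested. The genotypes rest on the labels, since a peak list does not show a deletion in Irf8.

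The promoters of 5 of the 6 genes were open in all 4 libraries, and none of them passed the test of a difference between the genotypes. That test was limma on log2 scaled pileup, centred on the library median and fitted to all 58550 regions, with Benjamini-Hochberg adjustment and a threshold of 0.05. Stat3 had the tallest promoter, followed by Stat2, Stat5a, Stat6 and Stat5b. This order held in each of the 4 libraries, and within each genotype no gene's values overlapped those of its neighbour in the order. Over all 4 libraries the ranges of Stat2 and Stat5a overlapped, as did those of Stat5a and Stat6. Stat4 had no deposited peak of any strength within 1 kb of the start of its longest coding transcript in any library.

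**Figure D1:**
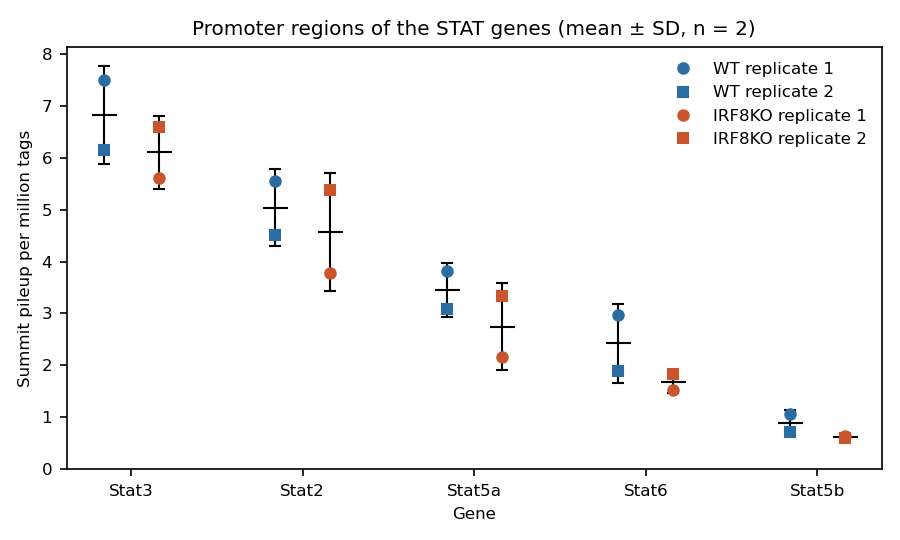
Scaled summit pileup (per 1000000 tags) of the promoter region of each STAT gene (vertical axis, linear) in WT and IRF8KO libraries; points are libraries, bars the mean ± SD of 2. Heights fall from Stat3 (6.83 in WT) to Stat5b (0.890 in WT), and Stat4, with no promoter peak, is not drawn.

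The Stat3 promoter lay on chromosome 11 at 100939264 to 100940068, across the start of this gene, which mediates IL-6 and IL-10 signals. Its scaled pileup was 7.50 and 6.16 in WT and 5.61 and 6.60 in IRF8KO, with means of 6.83 ± 0.949 and 6.10 ± 0.699 (SD, n = 2 each). The groups overlapped, and the log2 difference, IRF8KO minus WT, was 0.15 ± 0.15 (SE; limma adjusted p = 0.542). It was taller than 99% of the regions tested.

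The Stat2 promoter, at chromosome 10, 128270182 to 128270841, belongs to the STAT of the interferon-stimulated complex. Its scaled pileup was 5.56 and 4.52 in WT and 3.77 and 5.38 in IRF8KO, with means of 5.04 ± 0.735 and 4.57 ± 1.14 (SD, n = 2 each). The groups overlapped in scaled pileup. The log2 difference was 0.15 ± 0.16 (SE; limma adjusted p = 0.550). In multiples of the library median the values were 7.25 and 7.37 in WT and 8.49 and 7.74 in IRF8KO, so that both IRF8KO values lay above both WT values on that scale. The promoter that carries the ISRE and ETS-IRF letters printed above was therefore open with and without IRF8.

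Stat5a and Stat5b, close paralogs that lie head to head on chromosome 11, had promoters of unlike height, that of Stat5a being the taller in every library. The Stat5a region, at 100860177 to 100860878, lay 826 bp inside the start of the longest transcript and over a later start. Its scaled pileup was 3.81 and 3.09 in WT and 2.16 and 3.34 in IRF8KO (log2 difference -0.05 ± 0.17 SE, limma adjusted p = 0.881), overlapping on this scale and just apart relative to the medians, at 4.97 and 5.03 against 4.86 and 4.80. The Stat5b promoter, at 100850111 to 100851026, had 1.06 and 0.716 in WT and 0.635 and 0.604 in IRF8KO. In scaled pileup both IRF8KO values lay below both WT values, but relative to the library medians the groups overlapped, and the log2 difference was -0.19 ± 0.28 (SE; limma adjusted p = 0.689). Stat5b has a second coding start in its first intron, and the region over it, at 100822306 to 100822772, was the taller of its 2 promoters. It had 1.79 and 0.920 in WT and 1.02 and 1.33 in IRF8KO, with overlapping groups (log2 difference 0.16 ± 0.23 SE, limma adjusted p = 0.691).

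The Stat6 promoter, of the STAT that answers IL-4, covered 1117 bp at chromosome 10, 127642456 to 127643572. Its scaled pileup was 2.96 and 1.88 in WT and 1.52 and 1.83 in IRF8KO. Both IRF8KO values lay below the lower WT value, the groups overlapped relative to the medians, and the log2 difference was -0.20 ± 0.20 (SE; limma adjusted p = 0.538). At Stat4 the one region near a coding start lay 238 bp from its internal start, at chromosome 1, 52008481 to 52008700. It was low, at 0.319 and 0.205 in WT and 0.127 and 0.302 in IRF8KO, and lower than all but 8.29% of the regions tested (log2 difference -0.08 ± 0.38 SE, limma adjusted p = 0.916).

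Among the 30 regions of the 6 windows that could be tested, 6 passed the test, 4 higher and 2 lower in IRF8KO. That is 20%, against 25.8% of all 58550 regions, with 13.3% called higher and 12.5% called lower among all. The count of called regions is thus no larger than the background, and the median log2 difference of the 30 regions was -0.07 against -0.00 over all regions. The 30 had passed because all 4 libraries held a peak, and the other 29 regions of the windows could not be tested. The 6 lay in introns of Stat3, Stat4 and Stat5b, upstream of Stat6 and at the promoter of a neighbouring gene, Il23a. In each of them the 2 genotypes did not overlap, in scaled pileup or relative to the medians. Of the 30 regions, 8 were apart on both scales with IRF8KO lower and 4 with IRF8KO higher, while 26.0% and 11.6% of all 58550 regions were, so that these counts are near the background. Without centring on the medians the lower call at Stat3 was the only one left (adjusted p = 0.0261), with all 6 differences in the same direction. Over all regions that setting called 5644, of which 29.1% were higher in IRF8KO, against 51.7% of the 15104 called with centring.

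**Figure D2:**
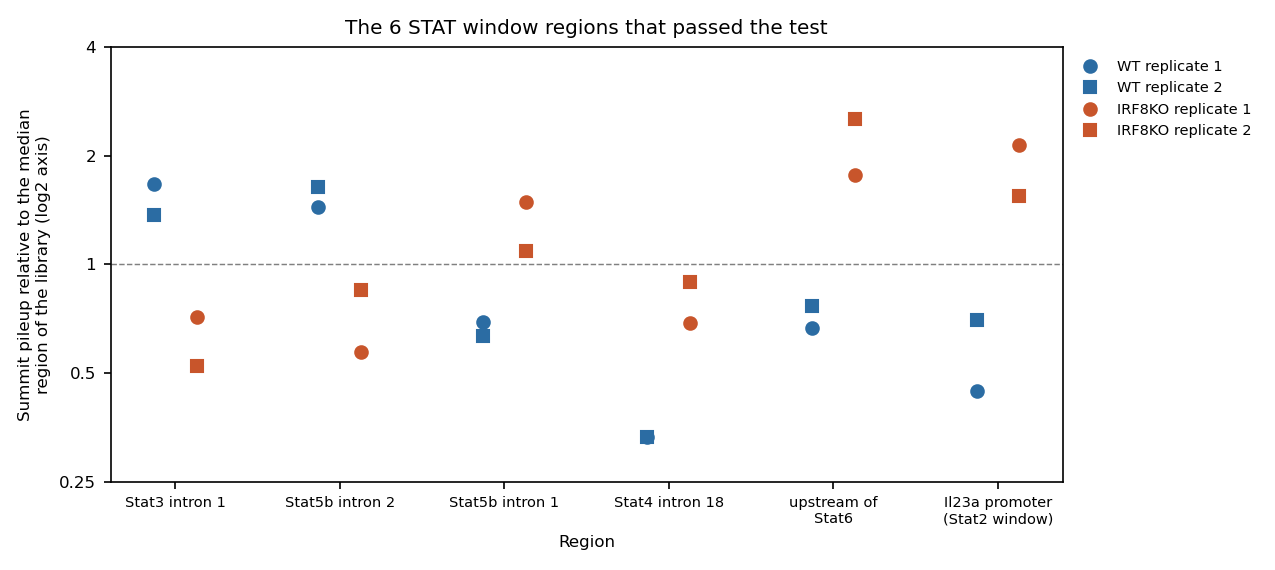
Summit pileup of the 6 called regions as a multiple of the median region of the same library (vertical axis, log2 scale), by region and library. WT values lie above IRF8KO values at the Stat3 and Stat5b intron 2 regions and below them at the other 4.

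The region that fell most lay in the first intron of Stat3, at chromosome 11, 100927442 to 100927662, 11818 bp inside the gene. Its scaled pileup was 1.28 and 0.839 in WT and 0.317 and 0.362 in IRF8KO. In multiples of the library median these were 1.67 and 1.37 in WT and 0.714 and 0.522 in IRF8KO, so that a region above the median in both WT libraries lay below it in both IRF8KO libraries. The log2 difference was -1.31 ± 0.29 (SE), a fold of 2.47 (limma adjusted p = 0.000321). It passed the test in all 10 alternatives, with adjusted p up to 0.0303. Its summit sequence held none of the 6 motifs.

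The second region that fell lay in intron 2 of Stat5b, at 100805362 to 100805830. It had 1.11 and 1.0 in WT and 0.254 and 0.589 in IRF8KO, which are 1.44 and 1.63 against 0.571 and 0.848 times the medians. The log2 difference was -1.14 ± 0.29 (SE; limma adjusted p = 0.00136). A PU.1 match lay at 100805649 to 100805656, on the minus strand, 25 bases from the summit. Leaving out IRF8KO replicate 1, where the region was lowest, gave -0.86 with an adjusted p of 0.0652.

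A region in intron 1 of Stat5b, at 100814346 to 100814889, went the other way. Scaled pileup there was 0.532 and 0.389 in WT and 0.660 and 0.755 in IRF8KO, a log2 difference of 0.94 ± 0.30 (SE; limma adjusted p = 0.0127). Stat5b thus held 1 region that fell and 1 that rose. The rise was not past the threshold without WT replicate 2 (0.87, adjusted p 0.0851) or without IRF8KO replicate 1 (0.71, adjusted p 0.190).

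Upstream of Stat6 a region at chromosome 10, 127636693 to 127636978, 6008 bp before the start, rose. It had 0.511 and 0.470 in WT and 0.787 and 1.75 in IRF8KO. Libraries of IRF8KO differed from each other by more than the WT libraries did, and both were above WT. The log2 difference was 1.56 ± 0.27 (SE), a fold of 2.96 (limma adjusted p = 3.41e-06). With fold enrichment as the value the log2 difference was smaller, at 0.86 (adjusted p = 0.0352). Its summit sequence held none of the 6 motifs.

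In the Stat2 window the region that rose was the promoter of Il23a, which encodes a subunit of IL-23, a cytokine that signals through STAT3 and STAT4. The region, at chromosome 10, 128298135 to 128298617, lay 51 bp from the start of Il23a and 27917 bp from that of Stat2. Scaled pileup there was 0.341 and 0.429 in WT and 0.952 and 1.07 in IRF8KO, with means of 0.385 ± 0.0627 and 1.01 ± 0.0850 (SD, n = 2 each). The log2 difference was 1.71 ± 0.29 (SE), a fold of 3.26 (limma adjusted p = 3.19e-06). This was the largest rise among the 30 regions. A PU.1 match lay 11 bases from the summit, at 128298478 to 128298485.

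In Stat4 a weak region in intron 18, at chromosome 1, 52100558 to 52100849, rose. The scaled pileup was 0.256 and 0.205 in WT and 0.305 and 0.619 in IRF8KO, and the raw depths at the summit were 12, 10, 24 and 41. The log2 difference was 1.23 ± 0.35 (SE; limma adjusted p = 0.00503). It was not past the threshold without IRF8KO replicate 2 (1.04, adjusted p 0.106). The annotation also places a non-coding gene, Gm28177, over this stretch. The tallest region of the Stat4 window lay past the 3′ end of the gene at 52113394 to 52114071, 5369 bp from the nearest coding start, which belongs to a gene outside the windows. It had 4.49 and 3.13 in WT and 2.18 and 3.71 in IRF8KO, with overlapping groups (log2 difference -0.09 ± 0.17 SE, limma adjusted p = 0.761), and it held a GAS match and an ISRE match.

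**Figure D3:**
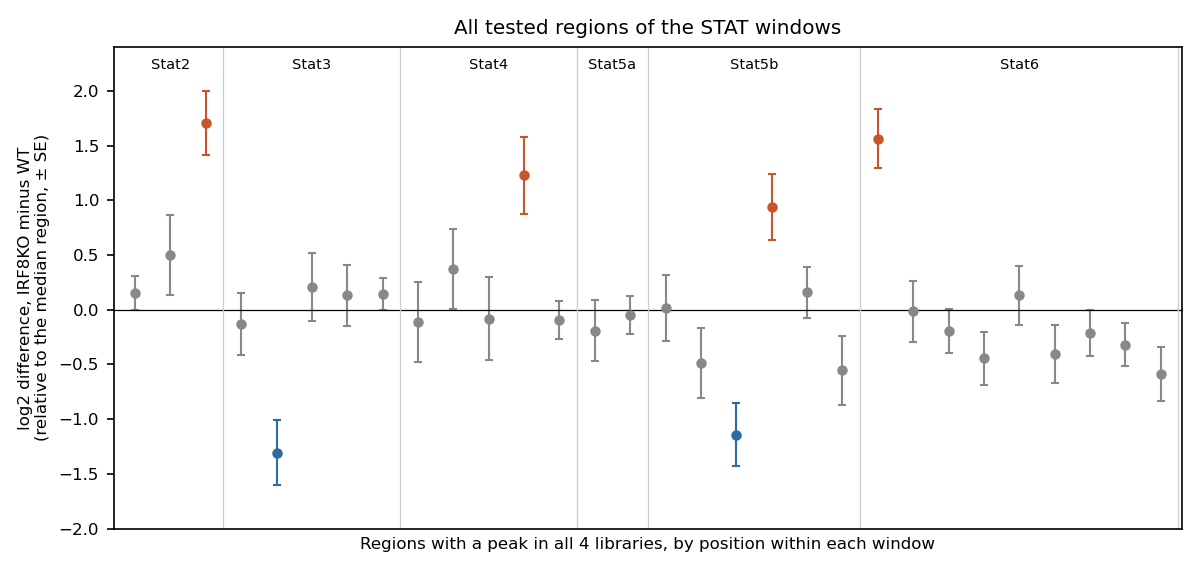
Log2 difference in summit pileup, IRF8KO minus WT, relative to the library medians (vertical axis, ± SE from limma) for the 30 regions with a peak in all 4 libraries, by window and position. Regions in 2 windows are drawn once; the 4 orange points passed the test as higher and the 2 blue points as lower in IRF8KO, and the 24 grey points did not pass.

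Of the 59 regions, 2 were WT-specific, strict in each WT library and without any listed peak, weak or strict, in those of IRF8KO, and 1 was IRF8KO-specific by the converse rule. These are 3.39% and 1.69%, against 5.58% and 3.86% of all 155546 regions, and a mixed pair of 1 WT and 1 IRF8KO library shared 0 of the 59 in this way, against 1.46% of all regions, which is near the background too. All 3 lay in the Stat5b window. The first WT-specific region, in intron 1 at chromosome 11, 100828814 to 100829010, had 0.277 and 0.266, a raw depth of 13 in each WT library. The same height would give depths of 21.4 and 18 in IRF8KO replicates 1 and 2, where the lowest deposited pileup anywhere was 8 and 7. The second, at 100771184 to 100771266, lay 227 bp from the start of the neighbouring gene Ghdc and had a depth of 9 in each WT library. The IRF8KO-specific region lay in intron 1 at 100848154 to 100848378, 2490 bp inside the gene. It had 0.254 and 0.362, with depths of 20 and 24, and the same height would give 14.5 and 15.1 in the WT libraries, whose lowest deposited pileup was 6. At a fold enrichment of 5 or more, none of the 3 was left. The balance of 2 to 1 turned to 3 to 5 with all deposited peaks and to 2 to 4 at an overlap of 50%, and a library left out gave up to 8 WT-specific (without WT replicate 1) or 7 IRF8KO-specific regions (without IRF8KO replicate 2).

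**Figure D4:**
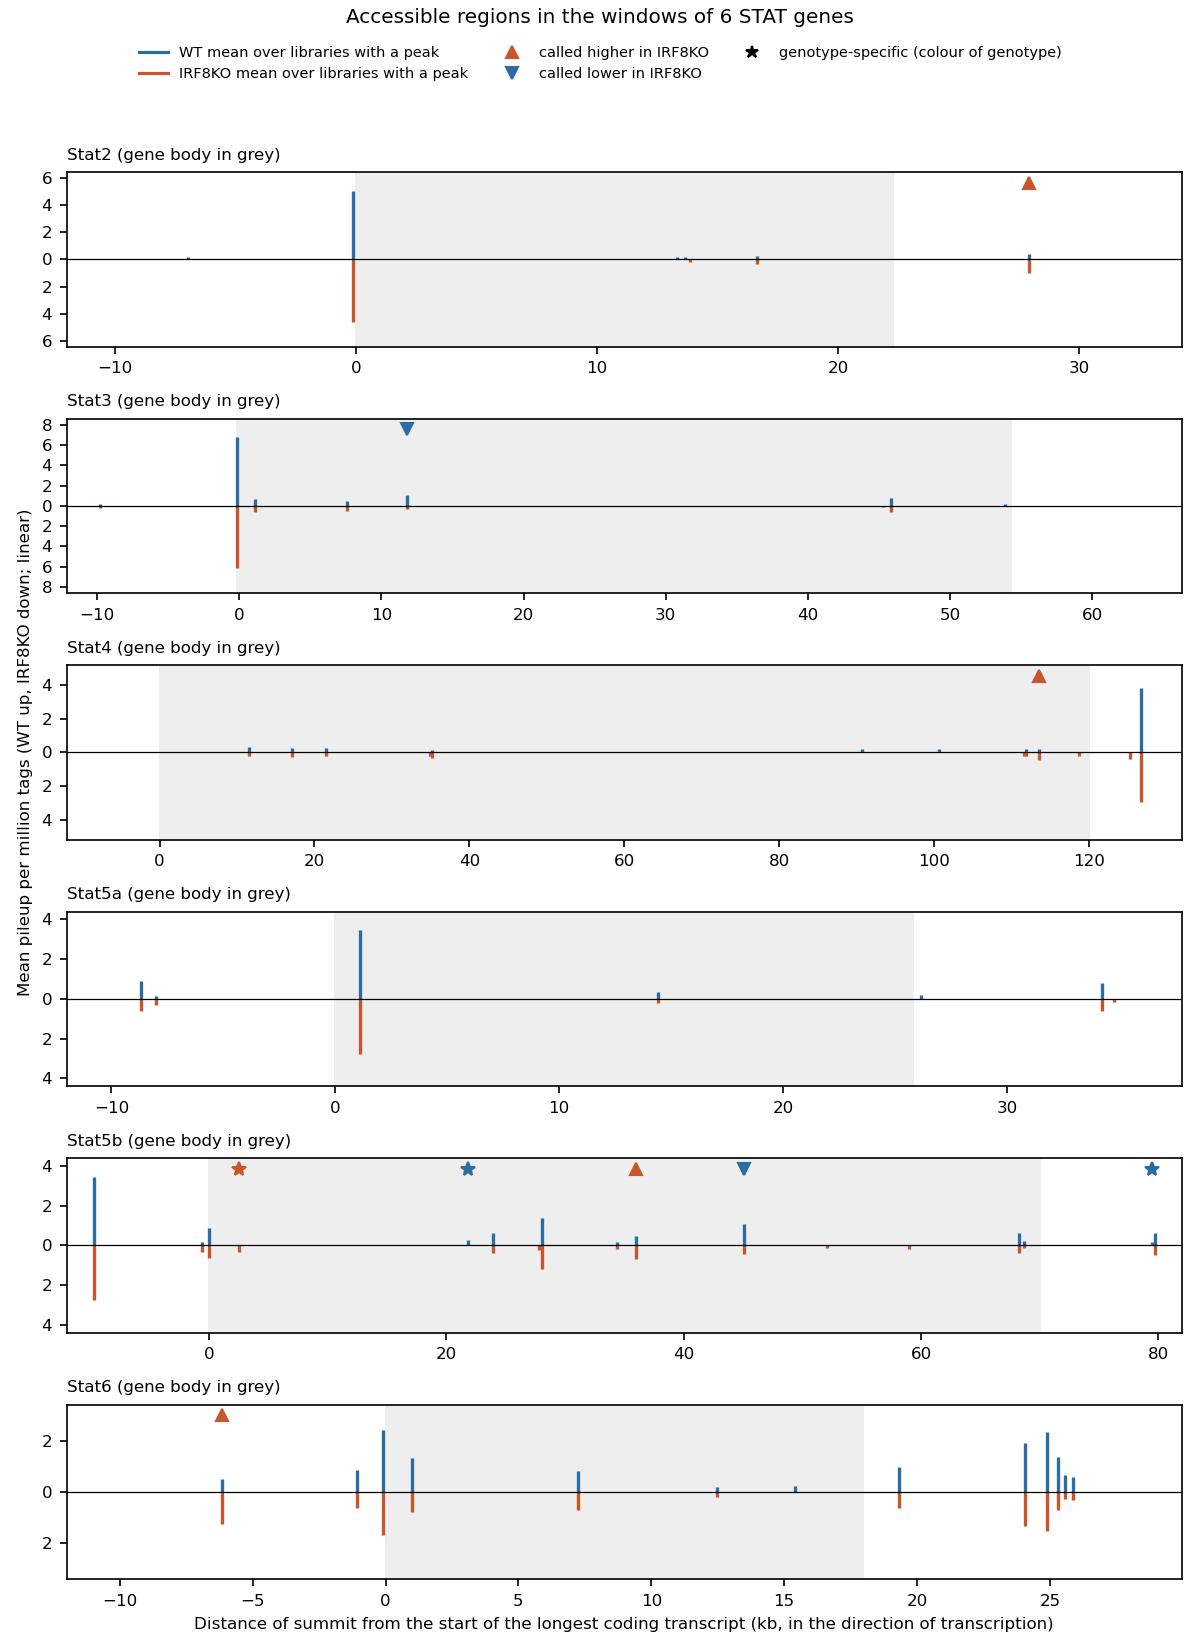
Mean scaled summit pileup (per 1000000 tags) over the libraries with a peak, WT upward and IRF8KO downward (vertical axis, linear, a different scale for each gene), against distance from the start of the longest coding transcript (kb). The promoter is the tallest bar at Stat2, Stat3, Stat5a and Stat6, the Stat4 start has no bar, and all 3 stars lie in the Stat5b panel.

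A small group of regions was deposited in both IRF8KO libraries and in neither WT library without meeting the strict rule in both. They were 2 in Stat4, in introns 4 and 24 with a scaled pileup of 0.140 and 0.287 each, 1 in Stat2 intron 19 with 0.165 and 0.136, and 1 in a Stat5b coding exon with 0.152 and 0.136. The converse was seen once, in the Stat2 window 5033 bp from the start of Apof, at 0.170 and 0.225 in WT, with a PU.1 match within 50 bases of the summit. The 4 are 6.78% and the 1 is 1.69% of the 59 regions, against 2.76% and 2.45% of all 155546 regions by the same rules, and with counts this small nothing is read from them. These heights correspond to 8 to 19 cut sites at the summit.

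Values of other tested regions that did not pass the test, picked here after they were seen, show that overlap depends on the scale. A Stat5b intron 1 region at 100826691 to 100826908 had a scaled pileup of 0.660 and 0.634 in WT and 0.241 and 0.529 in IRF8KO. Its groups did not overlap on either scale (log2 difference -0.55 ± 0.32 SE, limma adjusted p = 0.213). In the Stat6 window the same held for the 4 tested regions in introns of Nab2, all lower in IRF8KO, none of which passed the test. In multiples of the library median, the region in intron 6 had 1.31 and 1.53 in WT against 1.03 and 1.11 in IRF8KO (-0.41 ± 0.27, limma adjusted p = 0.298). Of the 3 in intron 1, that at 127666483 to 127667205 had 2.61 and 2.93 against 2.51 and 2.26 (-0.22 ± 0.21, limma adjusted p = 0.517). The next, at 127667545 to 127667952, had 3.28 and 3.5 against 2.83 and 2.61 (-0.32 ± 0.20, limma adjusted p = 0.265), and the last, at 127668045 to 127668451, was 1.92 and 2.0 against 1.6 and 1.07 (-0.58 ± 0.25, limma adjusted p = 0.0755). That last difference was past the threshold without IRF8KO replicate 1 (adjusted p = 0.0393).

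Other regions were apart in scaled pileup but overlapped relative to the medians. The region over a UTR of Stat5b, at 100782172 to 100782705, had 0.575 and 0.695 in WT against 0.368 and 0.362 in IRF8KO (-0.49 ± 0.32, limma adjusted p = 0.297). In Stat2 intron 22 a region that held a GAS match, TTCTGGGAA, had 0.234 and 0.286 in WT against 0.292 and 0.302 in IRF8KO (0.50 ± 0.37, limma adjusted p = 0.359). The converse held for a pair of low regions in Stat4 intron 2. The first had 0.341 and 0.266 against 0.178 and 0.287, or 0.444 and 0.433 against 0.400 and 0.413 times the medians, and the second 0.298 and 0.225 against 0.203 and 0.362, or 0.389 and 0.367 against 0.457 and 0.522 times the medians. Relative to the medians they were thus apart in opposite directions. In Stat3, a region in intron 20, with 0.916 and 0.654 against 0.381 and 0.861, and one in intron 1 close to the start, with 0.724 and 0.695 against 0.495 and 0.800, overlapped on both scales.

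The windows differed in how their regions were spread. Stat5b held 17 regions, Stat4 and Stat6 13 each, Stat3 8, and Stat2 and Stat5a 7 each, with 6 regions lying in 2 windows. The Stat6 window was the shortest, at 38.0 kb, and that of Stat4 the longest, at 140.0 kb. The Stat6 count includes the promoters of Nab2 and Nemp1. Of the 59 summits, 36 lay in introns, 13 between genes, 7 in UTRs and 3 in coding exons. In all, 29 regions (49.2%) were strict in all 4 libraries, against 31.0% of all regions, and 18 (30.5%) were strict in 1 library, against 43.1%.

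The 6 windows together held 43 and 45 strict peaks for WT against 42 and 41 for IRF8KO. The means were 44.0 ± 1.41 and 41.5 ± 0.707 (SD, n = 2 each). Over the whole series strict peaks numbered 97473 and 98863 for WT against 83996 and 95921 for IRF8KO, also lower in both IRF8KO libraries. The difference of -2.5 peaks in the windows had p = 0.33 in a two-sided exact permutation test, the smallest p that 2 against 2 libraries allow. Stat6 had 14 and 11 in WT against 9 and 10 in IRF8KO, and Stat4 had 5 and 8 against 6 and 10. At Stat3 the numbers were 5 and 7 against 7 and 6, at Stat2 4 and 5 against 4 and 4, at Stat5a 5 and 6 against 5 and 5, and at Stat5b 14 and 13 against 16 and 10. Among the 6 genes, only at Stat6 did every WT library lie above every IRF8KO library, a separation also seen over the whole series. The Stat6 counts include a region over a Nab2 UTR, at 127668498 to 127668641, with 1 strict peak per WT library and no strict IRF8KO peak. They also include the Stat6 promoter region, with 3 strict peaks in WT replicate 1 and 1 in every other library. How often other genes show such a separation was not tested, so nothing is read from it. The sign of the total reversed at a −log10 q of 5, where IRF8KO held 4.5 more on average, and in the gene bodies alone, where it held 0.5 more. It stayed with all deposited peaks (-3). It also stayed with an equal threshold on scaled pileup (-3), where the counts of 44 and 41 in WT and 37 and 42 in IRF8KO overlapped.

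Matches to GAS, ISRE and ETS-IRF were few in the 59 regions, and with counts of 1 to 4 regions nothing is read from their shares. Within 50 bases of the summit a GAS match was found in 3 of 59 regions (5.08%, against 2.41% of all 155546 regions), an ISRE match in 2 (3.39%, against 1.30%) and an ETS-IRF match in 1 (1.69%, against 2.57%). Within 100 bases, a width chosen after seeing the data, GAS was found in 4 (6.78%, against 5.92%), ISRE in 3 (5.08%, against 3.13%) and ETS-IRF in 2 (3.39%, against 4.30%). None of the 9 called or genotype-specific regions held any of these 3, against a share of 10.8% among all called or specific regions, so that 0 of 9 is near the background. Within 100 bases of the summit 1 of the 9 did (19.0% among all), the region upstream of Stat6 with a GAS match. The ISRE matches lay in the Stat3 intron 1 region at 100931645 to 100931889, as the overlapping pair GAAAGTGAAA and GAAAGAGAAA, and in the region downstream of Stat4, as GAAATCGAAA. The Stat3 region had 0.533 and 0.511 in WT and 0.393 and 0.604 in IRF8KO, which overlap, but in multiples of the median it had 0.694 and 0.833 against 0.886 and 0.870, which do not (log2 difference 0.21 ± 0.31 SE, limma adjusted p = 0.699). The ETS-IRF match, GGAAGGGAAA, lay in the Stat6 intron 1 region at 127643597 to 127644156, with a scaled pileup of 1.43 and 1.21 in WT and 0.673 and 0.906 in IRF8KO. Both WT values were above both IRF8KO values there, but the log2 difference of -0.44 ± 0.24 (SE) did not pass the test (limma adjusted p = 0.188). PU.1 matches were found in 4 regions (6.78%, against 5.78%), 2 of them the called regions named above, AP-1 in 2 (3.39%, against 4.65%) and CEBP in 3 (5.08%, against 4.75%). Among the regions of the whole genome, the ETS-IRF pattern had a share of 14.0% in the WT-specific class, and neither WT-specific region of the windows held it.

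The genes that act with STATs were read from a list of 52, all of which were matched. Their windows held 534 regions, of which 261 were tested and 58 called, 34 higher and 24 lower in IRF8KO (22.2%, against 25.8% of all regions). Without centring 6 were higher and 13 lower, which turned the balance. Both counts fell when any library was left out, as they did over all 58550 regions, so the fall is not particular to the list. Among the 4 Janus kinases, 2 of 25 tested regions were higher and 4 lower. Among 32 cytokine receptors, 23 of 149 were higher and 16 lower, and among 16 inhibitors 9 of 87 were higher and 4 lower. The called share of the inhibitors was 14.9%, of the kinases 24.0% and of the receptors 26.2%.

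Within the list, the called regions with the largest differences of each role are given by value. Tyk2, a Janus kinase that acts at the type I interferon and IL-12 receptors, held an intronic region at chromosome 9, 21125445 to 21126155, with 4.0 and 2.43 in WT and 0.495 and 0.846 in IRF8KO (log2 difference -1.97 ± 0.22 SE, limma adjusted p = 2.15e-11). Jak2, the kinase of the GM-CSF receptor, had a region 9942 bp from its start that rose, from 0.341 and 0.184 to 0.749 and 1.57 (2.42 ± 0.31, limma adjusted p = 1.84e-09). Tyk2 therefore fell and Jak2 rose at their most different regions.

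Among receptors, Lifr, the leukemia inhibitory factor receptor, held an intronic region with 0.298 and 0.205 in WT and 1.55 and 2.82 in IRF8KO (log2 difference 3.39 ± 0.27 SE, limma adjusted p = 1.09e-16). Ifnar2, a chain of the type I interferon receptor, held one with 1.04 and 0.716 in WT and 2.44 and 2.61 in IRF8KO (1.85 ± 0.22, limma adjusted p = 1.65e-10), which also lies in the window of Il10rb. Il4ra, which activates STAT6, held one with 0.469 and 0.368 in WT and 0.926 and 1.24 in IRF8KO (1.67 ± 0.28, limma adjusted p = 1.70e-06). All 3 were higher in both IRF8KO libraries than in either WT library, which their choice by the largest called differences makes likely. Over all 149 tested receptor regions, 23 were called higher and 16 lower.

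Among inhibitors, a region 4653 bp from the start of Socs6 had 0.213 and 0.205 in WT and 3.31 and 4.97 in IRF8KO (log2 difference 4.58 ± 0.25 SE, limma adjusted p = 3.44e-24). In the window of Socs3, the feedback inhibitor of STAT3, a region rose from 0.149 and 0.205 to 0.533 and 0.740 (2.15 ± 0.35, limma adjusted p = 1.05e-06). In the window of Socs4 a region in an intron of its neighbour Mapk1ip1l fell from 1.02 and 0.777 to 0.114 and 0.211 (-2.22 ± 0.34, limma adjusted p = 1.80e-07). The nearest coding starts of the Socs3, Socs4 and Ifnar2 regions belong to other genes, so a region in a window is not assigned to the gene that names it.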

How the data were processed

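ATAC-seq peak lists of 4 microglia libraries (2 WT, 2 IRF8KO) were used. Peaks had been called by the authors in single libraries, using MACS 2.1.1.20160309 with no control and a p cutoff of 0.01, per the file headers, with cut sites shifted by 37 bp and extended to 73 bp and the local background taken over 10 kb. Bowtie2 and mm10, the same assembly as GRCm38, are named in the submitters' processing notes. The deposited pileup is a signal, in whole cut sites, that the authors did not scale for depth. The authors' fold enrichment is the ratio of that signal to the local background, and the deposited p and q are −log10 values. The headers say that q was not calculated, but the column holds values. A threshold on q moves with depth, which followed genotype, as did tag size, so depth and genotype cannot be told apart in counts of peaks.

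Repeated intervals were reduced to distinct peaks with the best summit, on the autosomes and chromosome X. Strict peaks were merged into regions, and each region took the tallest summit of any deposited peak overlapping it by 1 bp or more. Regions with a peak in all 4 libraries were tested with limma 3.58.1 (R 4.3.3) on log2 pileup per 1000000 header tags, the scaled pileup, centred on library medians, with a variance trend and Benjamini-Hochberg adjustment. The fit was first tested on simulated data. Regions strict in both libraries of a genotype with no deposited peak in the other were called specific. The 10 alternatives to the fit covered scaling, the regions tested, the value, the replicate block and each library left out. Same-numbered libraries were checked for shared deviations and were not taken as pairs.

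Members, lists and motifs were chosen with earlier results of these data known. The rule for named regions takes the promoters, the tallest region of each gene, and every called or genotype-specific region. The other regions named were picked after their values were seen. Of the 52 listed genes, the 8 with the largest called differences in their role are named, the split of 2, 3 and 3 being set after the values were seen. The rule for printed sequences asked for called or specific regions with a GAS, ISRE or ETS-IRF match. None had one, and the 8 shown were chosen after their values were seen.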

Additional observations from a re-analysis of the deposited data

How the results depend on the processing

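The 4 higher and 2 lower calls in the STAT windows were the same 6 regions under quantile normalization, with strict peaks required in all 4 libraries and with fold enrichment as the value. Without centring, 0 higher and 1 lower were called, and with missing values set to the lowest deposited pileup 7 higher, over more regions by construction. Leaving out a library gave 3 to 4 higher and 2 lower calls. The 2 lower calls were not always the same: without IRF8KO replicate 1 the Stat5b intron 2 region was lost (adjusted p 0.0652) and the Nab2 intron region at 127668045 was called (adjusted p 0.0393). The replicate block gave 4 and 2, and in the list of 52 genes 35 higher and 25 lower, changing no call in the STAT windows. Same-numbered libraries did not deviate together (correlation 0.00436 over 58550 regions), so the numbers are not taken as pairs. In that list, 34 higher and 24 lower became 6 and 13 without centring, 64 and 49 with missing values filled, 19 and 14 with fold enrichment, and 15 to 27 and 14 to 19 with a library left out, the fewest higher without IRF8KO replicate 1 and the fewest lower without IRF8KO replicate 2 (14) and WT replicate 1 (15). The cause was not tested.

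WT-specific regions, 2 in all, became 1 at a −log10 q of 5, 0 at a fold enrichment of 5, 1 in gene bodies alone and 3 to 8 with a library left out. The highest count came without WT replicate 1. The 1 IRF8KO-specific region became 5 with all deposited peaks, 0 at a fold enrichment of 5, 4 with an overlap of 50%, and 1 to 7 with a library left out, the most without IRF8KO replicate 2 and 4 each without IRF8KO replicate 1 or WT replicate 2. With a library left out, fewer peaks are required by construction. The strict peak difference of -2.5 became 4.5 at a −log10 q of 5 and 0.5 in gene bodies, and -3.5 to -1.5 with a library left out.

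Of the promoters, Stat2 became -0.16, Stat3 -0.16 and the second Stat5b promoter -0.14 without centring, and Stat6 became 0.045 with fold enrichment. With a library left out, Stat3 ran from -0.060 to 0.35, Stat5b from -0.55 to 0.17, its second promoter from -0.16 to 0.48, the internal Stat4 start from -0.38 to 0.22 and the region downstream of Stat4 from -0.19 to 0.0075. None of these passed the test in any alternative. Of the regions picked after their values were seen, Stat3 intron 1 became -0.098 at 100931645 and -0.17 near the start without centring. With a library left out the latter ran from -0.00033 to 0.26 and Stat3 intron 20 from -0.40 to 0.13. The wider motif window, added after seeing the data, moved 0 of 9 regions with a GAS, ISRE or ETS-IRF match to 1. Depth limits the weakest regions, such as that near the internal Stat4 start, whose summit rests on 10 to 20 cut sites per library.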

Other observations

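The Stat6 window also held a cluster, chosen after its values were seen, of 5 regions over the promoters of Nab2, a corepressor of EGR factors, and Nemp1, a nuclear envelope protein, which lie back to back at the 3′ side of Stat6. Of these, 3 were open in all 4 libraries. At chromosome 10, 127667545 to 127667952, the scaled pileup was 2.51 and 2.147 in WT and 1.26 and 1.81 in IRF8KO, above that of the Stat6 promoter in WT replicate 2 only. The region at 127668045 to 127668451 had 1.47 and 1.23 in WT and 0.711 and 0.740 in IRF8KO, and every WT value lay above every IRF8KO value. Its log2 difference was -0.58 ± 0.25 (SE) and did not pass the threshold (limma adjusted p = 0.0755, and 0.0393 to 0.531 over the alternatives). The region at 127668498 to 127668641 was strict in both WT libraries, at 0.809 and 0.532, while IRF8KO replicate 1 held a weaker peak of 0.292 and IRF8KO replicate 2 none.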
